A study of Mus musculus with 29 samples.

Results

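The 35 genes described here encode the liver's machinery for burning fatty acids and a set of targets of PPAR-alpha, the nuclear receptor that fatty acids activate. They were taken from the deposited liver count table by matching its Ensembl gene IDs to a list of symbols, and all 35 were found among 54532 gene IDs and had enough counts to be tested, as did 15603 genes in all. Of these, 17 belong to mitochondrial beta-oxidation, 2 to ketone body metabolism, 7 to peroxisomes, 2 are omega-hydroxylases, 3 handle acyl-CoA outside the mitochondrial spiral, 2 are transcriptional regulators and 2 are other PPAR-alpha targets. The gene list was drawn up from pathway knowledge and with earlier results of these data known, so its behaviour is described by counts and medians beside those of all tested genes.

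The livers came from male mice, either wild type (WT) or carrying a Prox1 K556R knock-in restricted to hepatocytes, which removes the lysine to which SUMO is attached on this homeobox transcription factor. Recombination by Cre was induced at 8 weeks of age, after which all mice ate a diet high in fat (45%) and fructose (20%) for 18 weeks, and the liver of each fasted or refed animal was collected at zeitgeber time 15 to 17. Poly-A RNA was sequenced in 8 fasted WT (4 in each batch), 7 fasted K556R (4 and 3), 6 refed WT (3 and 3) and 8 refed K556R libraries (4 and 4). The promoter that drove Cre, whether the WT mice received Cre, and the length of the fast and of the refeeding are not given in the sources used here. No group on ordinary chow was analysed here, so every comparison is among livers on the diet. The labels number repeats but do not say that each library is a separate mouse, so p-values reflect the variation from library to library, which may be technical.

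Fatty acids enter liver mitochondria as carnitine esters and are shortened there by repeated rounds of dehydrogenation, hydration, a second dehydrogenation and thiolysis, and the acetyl-CoA can leave the liver as ketone bodies. Peroxisomes shorten very long chains, and CYP4A enzymes of the endoplasmic reticulum oxidise the omega end of the chain. PPAR-alpha, with its partner RXR, binds direct repeats of the AGGTCA motif and is known to raise many of these genes when fatty acids reach the fasting liver, while feeding and insulin lower that drive.

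Library totals ran from 14385218 to 27278251 counts, with 19065976 to 27278251 in batch 1 and 14385218 to 23526145 in batch 2. In a principal component analysis the first component held 37.9% of the variance and batch accounted for 97.2% of it, while feeding accounted for 81.1% of the third. Batch is therefore a term in every fit, and values within each batch are given below. Levels are CPM, counts scaled to a common TMM-adjusted library size. Summed CPM of 10 hepatocyte genes had group medians of 87530 to 94220, 5 muscle genes summed to at most 0.493 CPM in any library. Of 5 adipocyte genes Lep was at 0 throughout, and their summed CPM had group medians of 10.75 (3.71 to 29.02) in fasted WT, 5.61 (2.93 to 12.8) in fasted K556R, 6.84 (2.38 to 13.8) in refed WT and 3.59 (1.27 to 8.81) in refed K556R, ranges that overlap. Their part in the results was not tested. The ranges of the other lists, for macrophages, lymphocytes, stellate, biliary, endothelial and erythroid cells, overlapped between fasted and refed and between genotypes. Prox1 itself had group medians of 149 to 188 CPM, a level that does not check a change of a single amino acid. In bulk tissue, fewer cells of a type and less RNA per cell cannot be told apart.

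Refeeding lowered a part of this list in both genotypes, and no gene of the 35 passed as higher. In WT livers 11 of the 35 genes fell and 0 rose, by edgeR's quasi-likelihood test at a Benjamini-Hochberg adjusted p below 0.05 over all tested genes, where 10.7% of all genes passed, 5.43% as lower and 5.25% as higher. In K556R livers 14 fell and 0 rose, against 15.4% of all genes, 8.39% as lower and 6.97% as higher. The 11 genes that fell in WT were all among the 14 that fell in K556R, and the other three there were Vnn1, Slc25a20 and Acaa1a. The median log2 change over the 35 genes was -0.17 in WT and -0.23 in K556R, where the medians over all tested genes were 0.001 and 0.009. Values were negative for 32 of 35 genes in WT and for 31 of 35 in K556R.

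**Figure D1:**
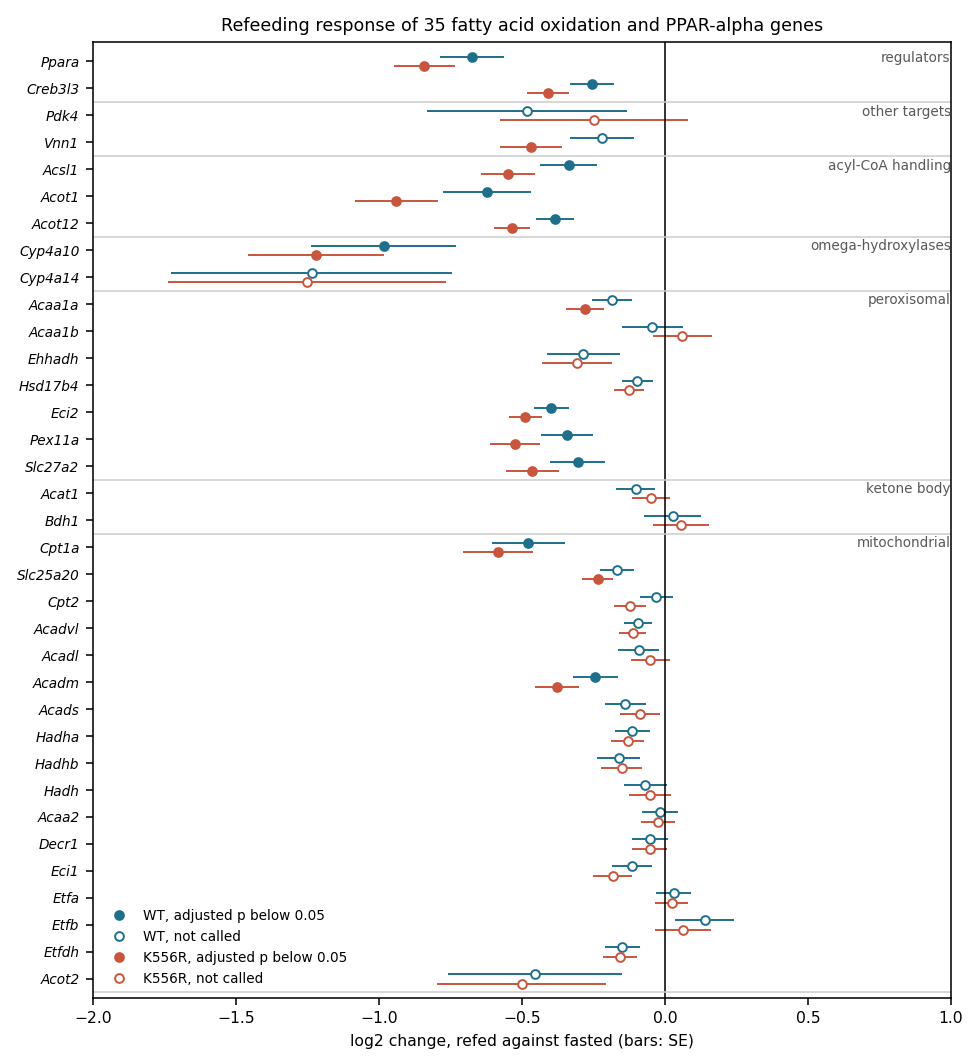
Log2 change of each of the 35 genes, refed against fasted, in WT (blue) and K556R (red), with bars for the standard error and filled points for an adjusted p below 0.05. The 11 filled points of WT and the 14 of K556R all lie below 0, and most mitochondrial genes sit close to 0.

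The arms of the pathway differed in how many members fell. Of the 7 peroxisomal genes 3 fell in WT and 4 in K556R, with median log2 changes of -0.29 and -0.31. Of the 17 mitochondrial genes 2 fell in WT and 3 in K556R, with medians of -0.11 and -0.12. All 3 acyl-CoA handling genes and both regulators fell in each genotype, as did 1 of the 2 omega-hydroxylases. Neither ketone body gene passed in either genotype. In the wider list described below, the order of the peroxisomal and mitochondrial arms was the other way. Its further peroxisomal genes had medians of -0.05 in WT and -0.06 in K556R, and its further mitochondrial genes -0.15 and -0.19. Differences between arms were not tested.

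Promoter windows were available in RefSeq (GRCm38.p6, 250 bases before to 50 after the start) for 28 of the 35 genes, in 31 windows, and were searched because members of the list fell together. The full direct repeat, AGGTCA followed by AGGTCA after a gap of 1 base, was in 0 of the 28 genes on either strand, and in 0.0396% of all 32851 windows. The single 6-base motif AGGTCA, which the repeat contains and which many nuclear receptors share, was in 6 of the 28 genes and in 16.3% of all windows. It was in 5 of the 10 genes with a window that fell in both genotypes and in 1 of the 18 others, Acadvl. The matching shares among all genes that fell, and among all that did not, were not computed. A link between the motif and the fall was therefore not tested. Both motifs were chosen with the expression values known, a match in letters is not evidence of binding, and its absence from this window says nothing of other sites. The 5 genes that fell and held AGGTCA were Slc27a2, Creb3l3, Acadm, Acot12 and Cpt1a. The stretches of 100 bases around the motif in Acadm, Acot12 and Cpt1a, which hold no exon of the gene, are printed 5' to 3' on the gene's strand. Capitals mark TGACCT, the reverse complement of AGGTCA, since the motif lies on the opposite strand.
Acadm: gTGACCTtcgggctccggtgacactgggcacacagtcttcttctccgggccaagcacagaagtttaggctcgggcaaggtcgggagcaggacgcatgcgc
Acot12: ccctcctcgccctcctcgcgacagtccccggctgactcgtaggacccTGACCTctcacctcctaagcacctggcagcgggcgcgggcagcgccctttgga
Cpt1a: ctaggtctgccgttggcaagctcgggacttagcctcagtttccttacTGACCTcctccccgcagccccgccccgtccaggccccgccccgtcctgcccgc
They lie at chr3:153944794-153944893 on the minus strand for Acadm, and on the plus strand at chr13:91741364-91741463 for Acot12 and chr19:3323160-3323259 for Cpt1a. The motif began 249, 110 and 94 bases, in the order printed, before the RefSeq start of that window. For Cpt1a that start is not the outermost one, which GENCODE places further upstream.

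The receptor gene itself responded to feeding. Ppara (chr15:85734983-85802819, plus strand, GRCm38) ran from 191.8 to 285.1 CPM in fasted WT livers (median 221.4) and from 100.6 to 184.1 in refed WT livers (median 148.9). In K556R it ran from 182.9 to 247.7 fasted (median 215.5) and from 96.3 to 157.2 refed (median 120.5). In both genotypes every refed library lay below every fasted one, also within each batch. The log2 change was -0.67 (SE 0.11, adjusted p = 0.000157, edgeR) in WT and -0.84 (SE 0.11, adjusted p = 1.63e-06) in K556R.

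Creb3l3 encodes CREBH, a transcription factor held in the endoplasmic reticulum membrane that is processed on fasting and acts with PPAR-alpha. It ran from 378.2 to 438.8 CPM (median 395.2) in fasted WT and from 319.4 to 387.2 (median 331.8) in refed WT, and from 359.0 to 506.8 (median 385.8) in fasted K556R and from 260.0 to 381.2 (median 296.4) in refed K556R. In WT 1 refed library, at 387.2, lay within the fasted range, and in K556R likewise 1, at 381.2. The log2 change was -0.25 (SE 0.077, adjusted p = 0.0295, edgeR) in WT and -0.41 (SE 0.073, adjusted p = 0.000203) in K556R. The call in WT was kept in 20 of the 29 fits that each left out a library.

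Among mitochondrial genes that passed, the largest fitted change was at the step of import. Cpt1a (chr19:3322334-3385733, plus strand), the outer-membrane carnitine palmitoyltransferase that controls entry, ran from 860.5 to 1130.0 CPM (median 1009.0) in fasted WT and from 467.1 to 846.9 (median 791.4) in refed WT. In K556R it ran from 741.3 to 1100.0 fasted (median 942.6) and from 398.6 to 837.8 refed (median 631.0). All refed WT libraries lay below all fasted ones, while in K556R the groups were separate in batch 1 and overlapped in batch 2. Cpt1a changed by -0.48 (SE 0.13, adjusted p = 0.0131, edgeR) in WT and by -0.58 (SE 0.12, adjusted p = 0.00105) in K556R on the log2 scale. In K556R the change was -0.81 in batch 1 (adjusted p = 0.000548, edgeR) and -0.35 in batch 2, where it did not pass on its own (adjusted p = 0.219). In WT it was -0.37 and -0.59 and passed in neither batch alone (adjusted p = 0.151 and 0.0899, edgeR).

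The carrier and the inner-membrane enzyme of the same shuttle moved less. Slc25a20, the carnitine/acylcarnitine carrier, had medians of 249.1 CPM fasted and 229.8 refed in WT (ranges 221.5 to 274.8 and 182.4 to 251.5) and of 253.5 and 206.0 in K556R (209.6 to 270.3 and 172.5 to 225.5). These ranges overlapped with the batches pooled. In WT the feeding states were separate within each batch, and in K556R within batch 1 and not batch 2. The log2 change was -0.17 (SE 0.058, adjusted p = 0.0615, edgeR) in WT and -0.24 (SE 0.055, adjusted p = 0.00323) in K556R. DESeq2 called Slc25a20 in WT as well. Cpt2, the inner-membrane transferase, stood at -0.03 (SE 0.058) and -0.12 (SE 0.056) and was called in neither.

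Of the 10 enzymes of the mitochondrial spiral and its isomerases, only the medium-chain acyl-CoA dehydrogenase gene Acadm passed by edgeR, in each genotype. The isomerase gene Eci1 stood at -0.18 in K556R (SE 0.068, adjusted p = 0.0646, edgeR). There DESeq2 called Eci1, as did edgeR without refed K556R batch 2 replicate 2. Acadm ran from 465.9 to 623.8 CPM (median 592.6) fasted and from 427.2 to 554.1 (median 476.8) refed in WT, and from 473.3 to 666.7 (median 590.4) fasted and from 354.4 to 512.0 (median 429.5) refed in K556R. The ranges overlapped in both genotypes, and were separate within batch 1. The log2 change was -0.24 (SE 0.080, adjusted p = 0.0469, edgeR) in WT, a call kept in 4 of 29 fits without a library, and -0.38 (SE 0.076, adjusted p = 0.00075) in K556R. The median over the 10 genes was -0.10 in both genotypes. All 10 were negative in each, among them the very long-chain and long-chain dehydrogenases Acadvl (-0.10 in WT, -0.11 in K556R) and Acadl (-0.09 and -0.05). Hadha and Hadhb, the subunits of the trifunctional protein, stood at -0.11 and -0.16 in WT and at -0.13 and -0.15 in K556R. Acaa2, the thiolase of the last step, stood at -0.02 in both. Of the 3 electron transfer genes 0 passed in either genotype at adjusted p, and Etfdh alone had an unadjusted p below 0.05 in each (0.0241 in WT and 0.0128 in K556R, edgeR), with log2 changes of -0.15 and -0.16.

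With the batches pooled, the ketone body genes of the list moved little with feeding. Acat1, the mitochondrial acetoacetyl-CoA thiolase, had group medians of 638.4 CPM fasted and 602.2 refed in WT and 636.9 and 588.8 in K556R, with log2 changes of -0.10 (SE 0.069) and -0.05 (SE 0.066). Bdh1, which interconverts acetoacetate and 3-hydroxybutyrate, had medians of 331.3 and 343.5 in WT and 329.3 and 319.9 in K556R, with changes of 0.03 (SE 0.10) and 0.06 (SE 0.098). In K556R the pooled value of Bdh1 averaged -0.18 in batch 1 and 0.32 in batch 2. That difference of 0.53 between batches did not pass (adjusted p = 0.084, edgeR). Ranges overlapped in every comparison of Acat1 and Bdh1.

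In peroxisomes the most uniform fall was that of Eci2, an enoyl-CoA isomerase needed for unsaturated chains. Eci2 (chr13:34977748-35027096, minus strand) ran from 267.0 to 320.0 CPM (median 290.4) fasted and from 210.9 to 238.0 (median 226.7) refed in WT, and from 254.9 to 319.3 (median 278.4) and from 176.2 to 215.3 (median 208.6) in K556R. Every refed library lay below every fasted one of its genotype, in both batches. The log2 change was -0.40 (SE 0.061, adjusted p = 5.47e-05, edgeR) in WT and -0.49 (SE 0.058, adjusted p = 5.37e-07) in K556R, and it passed in each batch alone in both genotypes.

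Pex11a, which promotes the division of peroxisomes, ran from 399.5 to 504.7 CPM (median 428.0) fasted and from 303.1 to 381.3 (median 345.8) refed in WT. In K556R it ran from 340.2 to 421.7 (median 405.7) fasted and from 183.2 to 330.3 (median 277.6) refed. The feeding states were separate in both genotypes and in both batches. Pex11a changed by -0.34 (SE 0.092, adjusted p = 0.0134, edgeR) in WT and -0.52 (SE 0.088, adjusted p = 8.43e-05) in K556R on the log2 scale.

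Slc27a2, the very long-chain acyl-CoA synthetase, fell by less and with overlapping ranges. It ran from 1446 to 2020.0 CPM (median 1813) fasted and from 1252 to 1658 (median 1418) refed in WT, and from 1378 to 2164 (median 1661) and from 1038 to 1608 (median 1177) in K556R. Its log2 change was -0.31 (SE 0.097, adjusted p = 0.0396, edgeR) in WT, kept in 11 of 29 fits without a library, and -0.46 (SE 0.092, adjusted p = 0.000639) in K556R. In K556R it was -0.22 in batch 1 and -0.75 in batch 2, and the difference between batches did not pass (adjusted p = 0.0955, edgeR).

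The peroxisomal thiolases differed from each other. Acaa1a had medians of 403.5 CPM fasted and 352.4 refed in WT (ranges 332.1 to 482.6 and 287.9 to 426.4) and of 353.7 and 303.3 in K556R (309.6 to 420.6 and 226.3 to 383.0), with log2 changes of -0.18 (SE 0.071, adjusted p = 0.0982, edgeR) and -0.28 (SE 0.068, adjusted p = 0.00412). Acaa1b, with medians of 3125 and 3079 in WT and of 2575 and 2832 in K556R, stood at -0.04 (SE 0.11) and 0.06 (SE 0.10). Their coding sequences are near-identical, and the counting of shared reads could split them, so each value is uncertain. Hsd17b4, the D-bifunctional enzyme, stood at -0.10 (SE 0.055) and -0.13 (SE 0.053) and was called in neither genotype.

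Ehhadh (chr16:21761287-21787807, minus strand) encodes the L-bifunctional enzyme, a classic PPAR-alpha target. It ran from 395.8 to 694.8 CPM (median 572.5) fasted and from 343.2 to 599.7 (median 453.4) refed in WT, and from 480.0 to 924.5 (median 672.5) and from 322.5 to 564.6 (median 530.1) in K556R. Feeding states overlapped in both genotypes. The log2 changes of -0.29 (SE 0.13, adjusted p = 0.168, edgeR) in WT and -0.31 (SE 0.12, adjusted p = 0.0905) in K556R did not pass. Ehhadh did pass in batch 1 alone in K556R (-0.64, adjusted p = 0.0101, edgeR) and in batch 2 alone in WT (-0.47, adjusted p = 0.0307).

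The omega-hydroxylase genes had the largest fitted changes and wide scatter. Cyp4a10 ran from 517.6 to 1252 CPM (median 1175) fasted and from 251.3 to 1008 (median 501.2) refed in WT, and from 469.4 to 1832 (median 1331) and from 196.6 to 817.9 (median 396.2) in K556R. Its ranges overlapped with both batches pooled, and in WT they were separate within each. The log2 change was -0.98 (SE 0.25, adjusted p = 0.00982, edgeR) in WT and -1.22 (SE 0.24, adjusted p = 0.000531) in K556R. Cyp4a14 (chr4:115486200-115496142, minus strand) ran from 276.8 to 1588 CPM (median 1283) fasted and from 45.4 to 1165 (median 422.1) refed in WT, and from 206.8 to 2201 (median 1274) and from 70.6 to 545.6 (median 376.5) in K556R. With the batches pooled the groups overlapped, and its changes of -1.24 (SE 0.49, adjusted p = 0.114, edgeR) and -1.25 (SE 0.48, adjusted p = 0.0806) passed in neither genotype. Within batch 1 the feeding states of Cyp4a14 were separate in both genotypes, and in K556R it passed there (-2.52, adjusted p = 0.00105, edgeR) and in a fit with no batch term, but not in batch 2 alone (0.14, adjusted p = 0.901). CYP4A genes form a cluster of close paralogs, and reads shared among them make the split between members uncertain.

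**Figure D2:**
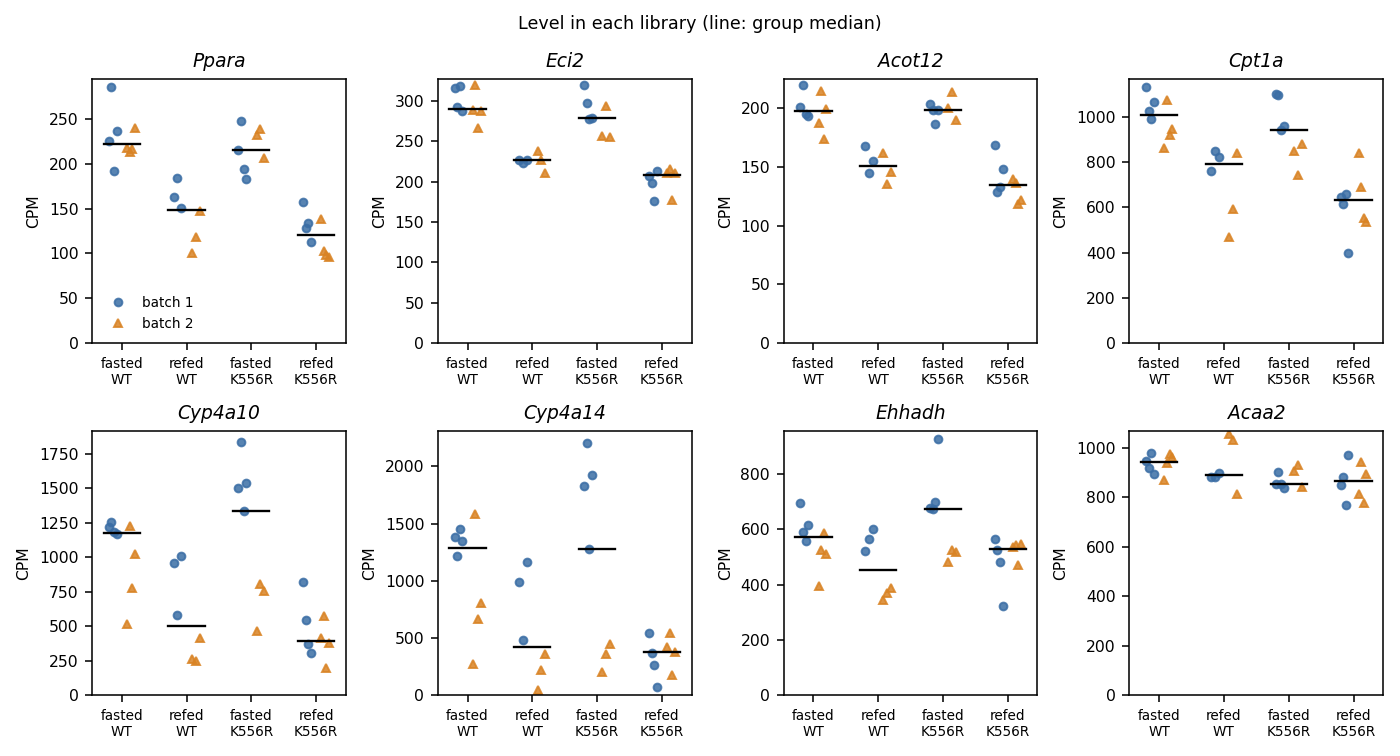
Level (CPM, axis from 0) of 8 of the genes in every library, by group, with circles for batch 1, triangles for batch 2 and a line at the group median. Ppara, Eci2 and Acot12 are separate by feeding state in both genotypes, while Cyp4a10 and Cyp4a14 spread over several-fold ranges and Acaa2 stays level.

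The 3 genes that handle acyl-CoA outside the spiral all fell in both genotypes. Acot12, a cytosolic acetyl-CoA thioesterase, ran from 173.7 to 219.5 CPM (median 196.9) fasted and from 135.6 to 167.5 (median 150.1) refed in WT, and from 186.1 to 213.3 (median 198.1) and from 117.9 to 168.8 (median 134.3) in K556R. Refed and fasted libraries were separate in both genotypes and both batches, and the log2 change was -0.38 (SE 0.067, adjusted p = 0.00025, edgeR) in WT and -0.53 (SE 0.063, adjusted p = 5.65e-07) in K556R. Acsl1, the main hepatic long-chain acyl-CoA synthetase, ran from 2162 to 3123 CPM (median 2716) fasted and from 1877 to 2422 (median 2067) refed in WT, and from 2370.0 to 3213 (median 2642) and from 1370.0 to 2537 (median 1737) in K556R. Its ranges overlapped, with log2 changes of -0.34 (SE 0.099, adjusted p = 0.0256, edgeR; kept in 23 of 29 fits without a library) and -0.55 (SE 0.094, adjusted p = 0.000119). Acot1, a cytosolic acyl-CoA thioesterase, ran from 109.2 to 184.3 CPM (median 151.9) fasted and from 69.3 to 134.7 (median 95.1) refed in WT, and from 106.6 to 188.3 (median 170.3) and from 49.1 to 125.2 (median 84.6) in K556R. Its ranges also overlapped with the batches pooled, but were separate within each batch in K556R and within batch 2 in WT. Acot1 fell by 0.62 (SE 0.15, adjusted p = 0.00729, edgeR) in WT and by 0.94 (SE 0.14, adjusted p = 3.22e-05) in K556R on the log2 scale. Acot2, its mitochondrial and near-identical neighbour, stood at -0.45 (SE 0.30) and -0.50 (SE 0.29) and was called in neither, though in K556R it passed in batch 1 alone (-1.23, adjusted p = 0.0317, edgeR). Reads shared by Acot1 and Acot2 make the split between them uncertain.

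Of the remaining PPAR-alpha targets, Vnn1, a pantetheinase that releases cysteamine, had medians of 179.7 CPM fasted and 153.9 refed in WT (145.3 to 232.9 and 130.1 to 201.9) and of 187.6 and 134.2 in K556R (151.2 to 201.5 and 105.0 to 163.5). The ranges overlapped, and the log2 change was -0.22 (SE 0.11, adjusted p = 0.244, edgeR) in WT and -0.47 (SE 0.11, adjusted p = 0.00245) in K556R. Pdk4, the kinase that switches off pyruvate dehydrogenase, ran from 31.3 to 99.2 CPM fasted and from 3.68 to 78.8 refed in WT, and from 30.1 to 125.9 and from 25.9 to 76.4 in K556R. Its changes of -0.48 (SE 0.35) and -0.25 (SE 0.33) were no larger than the scatter allows, with an adjusted p of 0.443 in WT and 0.681 in K556R (edgeR).

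Other genes of the same pathway were counted in a list of 114, of which 112 were tested. In WT 23 fell and 8 rose, and in K556R 32 fell and 9 rose, with medians of -0.11 and -0.14. Of all tested genes 5.43% fell and 5.25% rose in WT, and 8.39% fell and 6.97% rose in K556R. Among the 4 named for the smallest p, Angptl4, a secreted inhibitor of lipoprotein lipase, fell to 0.353 of its fasted level (adjusted p = 1.97e-10, edgeR) in WT and to 0.287 (adjusted p = 8.28e-13) in K556R. Cyp4a32, a further CYP4A gene, fell to 0.544 and 0.391, the mitochondrial carrier gene Slc25a34 to 0.407 and 0.345, and the carnitine transporter gene Slc22a5 to 0.585 and 0.489. Of 20 further mitochondrial genes 4 fell in WT and 7 in K556R, and 0 rose. Of 29 further peroxisomal genes 2 fell and 2 rose in WT and 4 fell and 4 rose in K556R. Of 7 further ketone body genes 0 fell and 2 rose in WT, and 1 fell and 2 rose in K556R.

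Fewer of the genes passed between genotypes than between feeding states. In fasted livers 0 of 35 genes passed in K556R against WT (edgeR, where 0.103% of all genes passed), 1 had an unadjusted p below 0.05, where 9.48% of all genes did, and DESeq2 called 0, where it called 0.606% of all genes. The median over the 35 was -0.07, with 29 negative, against 0 over all genes. The 4 smallest p-values belonged to Acads (-0.23, SE 0.070, adjusted p = 0.247), Acaa1b (-0.20, SE 0.10, adjusted p = 0.544), Acadvl (-0.09, adjusted p = 0.549) and Acaa1a (-0.13, SE 0.068, adjusted p = 0.549). Ppara stood at -0.08 (SE 0.11), Cpt1a at -0.11 (SE 0.12), Ehhadh at 0.16 (SE 0.12) and Cyp4a14 at -0.22 (SE 0.47). All 17 mitochondrial genes had negative values when fasted, with a median of -0.09, and the batch medians were -0.04 and -0.10.

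In refed livers 0 of 35 genes passed (edgeR, 0% of all genes), 15 had an unadjusted p below 0.05, where 8.45% of all genes did, and DESeq2 called 0, where it called 0.299% of all genes. The median was -0.15, with 32 of 35 negative, against -0.001 over all genes. It was -0.21 in batch 1 (33 negative) and -0.05 in batch 2 (19 negative), so the pooled median mostly describes batch 1. The 4 smallest p-values belonged to Pex11a (-0.32, SE 0.091, adjusted p = 0.254), Acaa1a (-0.23, SE 0.070, adjusted p = 0.327), Eci2 (-0.17, adjusted p = 0.431) and Eci1 (-0.19, adjusted p = 0.445). Ppara stood at -0.25 (SE 0.11, adjusted p = 0.533), Cpt1a at -0.21 (SE 0.13), Ehhadh at 0.14 (SE 0.13) and Cyp4a14 at -0.24 (SE 0.49). These fasted and refed contrasts use the same libraries as the refeeding contrasts and are not independent of them.

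**Figure D3:**
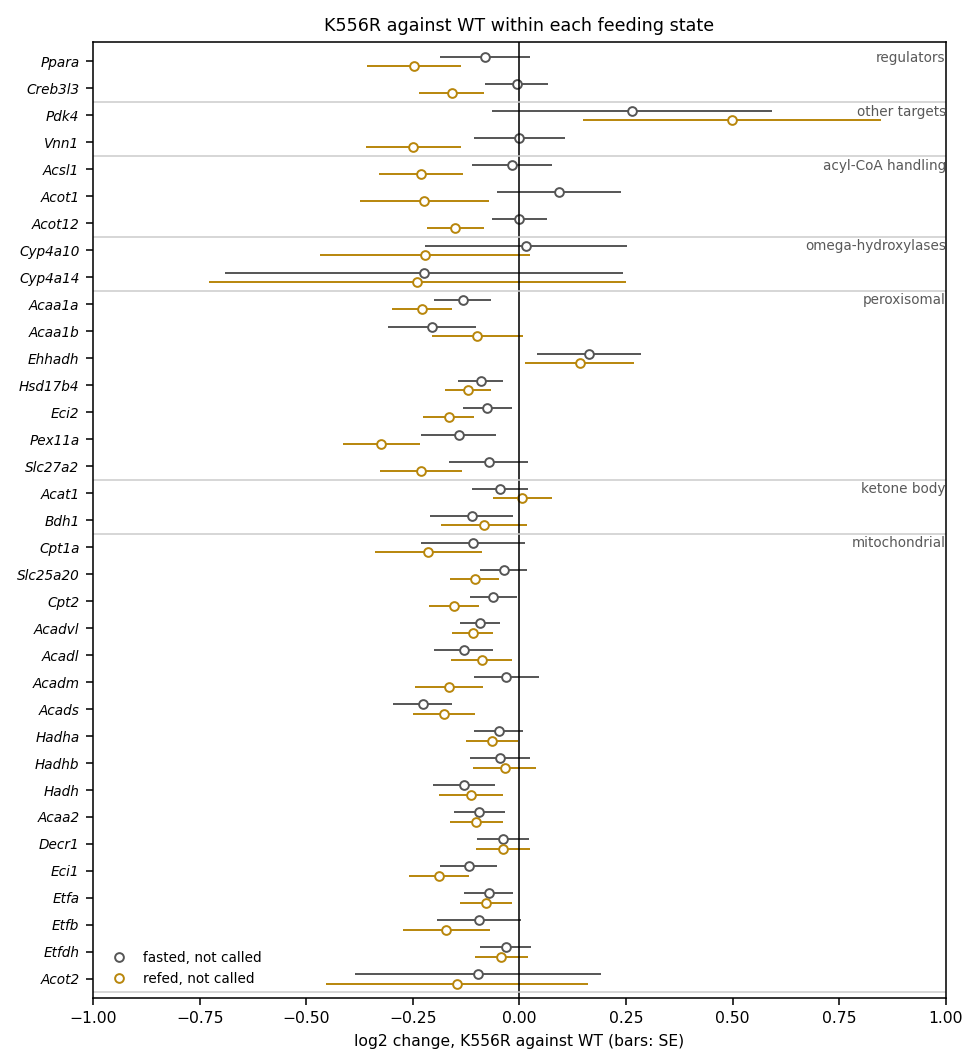
Log2 difference of each of the 35 genes, K556R against WT, in fasted (grey) and refed (gold) livers, with bars for the standard error. Open points show that no gene passed in either state, and 29 of 35 fasted and 32 of 35 refed values lie below 0.

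Averaged over both feeding states, 1 of 35 genes was lower in K556R and 0 were higher, where 1.24% of all genes passed, 0.615% as lower and 0.628% as higher. DESeq2 called 4, with Acaa1a, Acadvl and Pex11a added, where it called 2.95% of all genes. That gene was Acads (chr5:115110299-115119346, minus strand), the short-chain acyl-CoA dehydrogenase, at -0.20 (SE 0.050, adjusted p = 0.0377, edgeR). Fasted WT livers ran from 222.0 to 300.8 CPM (median 233.5) and fasted K556R livers from 197.6 to 214.1 (median 209.3). Refed WT livers ran from 192.1 to 246.3 (median 219.5) and refed K556R livers from 160.9 to 215.0 (median 195.4). When fasted, every K556R library lay below every WT library, in both batches, and when refed the genotypes were barely separate in batch 1 (K556R up to 197.6 CPM, WT from 197.9) and overlapped in batch 2. The difference was -0.29 in batch 1 and -0.10 in batch 2, and it passed in neither batch alone, where 0.819% and 0% of all genes passed. Leaving out 1 library at a time, Acads kept its call in 14 of 29 fits, with adjusted p from 0.0223 to 0.0842 and values from -0.22 to -0.17. The other named genes stood at -0.16 for Ppara (SE 0.077, adjusted p = 0.313), -0.16 for Cpt1a (SE 0.088), 0.15 for Ehhadh (SE 0.088) and -0.23 for Cyp4a14 (SE 0.33). In the wider list 2 of 112 genes were lower, Tysnd1, a peroxisomal processing protease (-0.28, SE 0.064, adjusted p = 0.0222), and Sirt3, a mitochondrial deacetylase (-0.15, SE 0.035, adjusted p = 0.0231), and 0 were higher.

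Whether refeeding acted differently in K556R was tested as the interaction. It passed in 0 of 35 genes by edgeR and by DESeq2, and 0 of the 35 had an unadjusted p below 0.05, where 0% of all genes passed at adjusted p and 2.82% at unadjusted p. The smallest p-values were those of Acot12 (-0.15, SE 0.092), Vnn1 (-0.25, SE 0.15), Acsl1 (-0.21, SE 0.14) and Acot1 (-0.32, SE 0.21), each with an adjusted p of 1. The longer list of calls in K556R, with Vnn1, Slc25a20 and Acaa1a, is thus no test that these genes respond more in that genotype. Ppara stood at -0.17 (SE 0.15), Cpt1a at -0.11 (SE 0.18), Ehhadh at -0.02 (SE 0.18) and Cyp4a14 at -0.02 (SE 0.70). The standard errors leave room for differences of either sign in most of these genes.

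The batches did not give the same picture. In WT the median refeeding change over the 35 genes was -0.07 in batch 1 and -0.25 in batch 2, and 2 genes (Eci2 and Acot12) passed in batch 1 alone and 6 in batch 2 alone, where 5.54% and 3.85% of all genes passed. In K556R the medians were -0.23 and -0.13, and 13 and 9 genes passed, where 9.81% and 12.5% of all genes did. For the peroxisomal genes the batch medians were -0.15 and -0.36 in WT and -0.34 and -0.22 in K556R. For the mitochondrial genes they were -0.07 and -0.15 in WT and -0.16 and -0.08 in K556R. The interaction had a median of -0.16 in batch 1 and 0.05 in batch 2, so its pooled value describes neither.

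**Figure D4:**
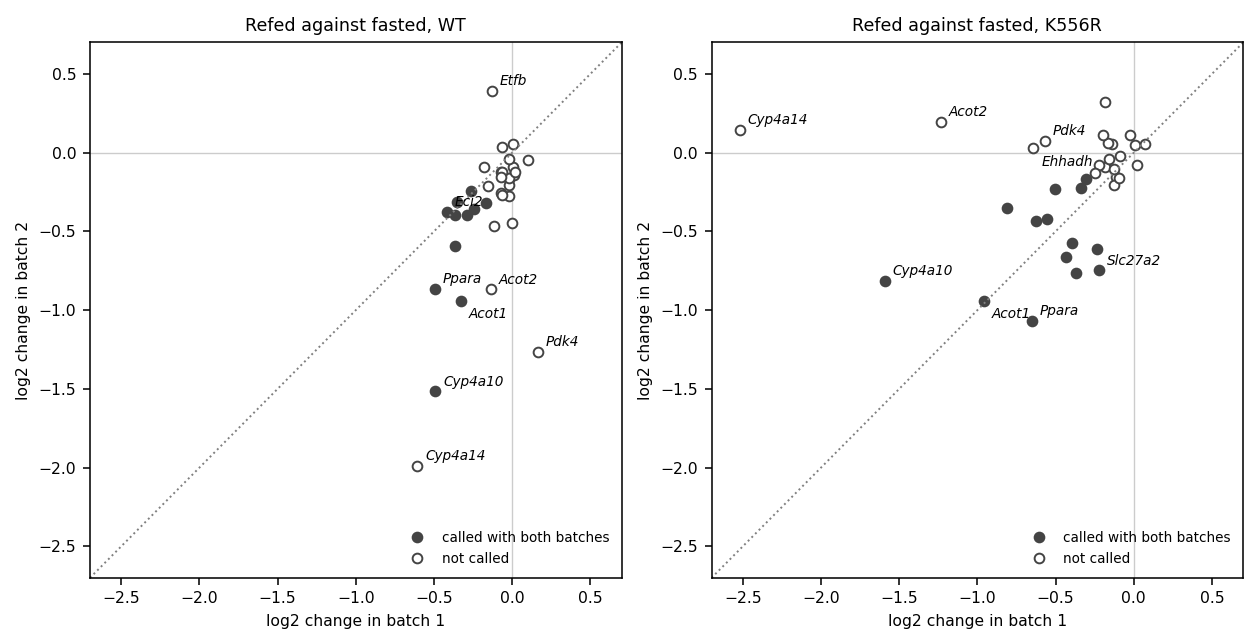
Log2 refeeding change of each of the 35 genes in batch 1 (horizontal) against batch 2 (vertical), for WT (left) and K556R (right), with filled points for genes called with both batches and a dotted line of equality. Cyp4a14 lies at -2.52 and 0.14 in K556R and at -0.61 and -1.99 in WT.

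Tested directly, the difference between batches in the K556R refeeding change passed for 1 of 35 genes, where 3.54% of all genes passed, and for 0 of 35 in WT, where 0% did (edgeR). That gene was Ehhadh, whose K556R change differed by 0.70 between batches (adjusted p = 0.0444). In batch 1 the fasted K556R livers stood at 677.6, 672.5, 697.0 and 924.5 CPM and the refed ones at 564.6, 524.5, 481.0 and 322.5. In batch 2 the fasted ones stood at 480.0, 523.3 and 516.4 CPM and the refed ones at 535.6, 544.2, 471.1 and 545.9. Thus feeding states were separate in batch 1, where the change was -0.64, and mixed in batch 2, where it was 0.03. In WT livers the states overlapped in batch 1 and were separate in batch 2, with 694.8, 591.1, 558.1 and 614.3 fasted against 520.0, 565.6 and 599.7 refed in batch 1, and 395.8, 523.9, 586.8 and 511.6 against 343.2, 370.2 and 386.9 in batch 2. Leaving out 1 K556R library at a time, the Ehhadh difference stayed positive and passed in 5 of 15 fits, with adjusted p from 0.0385 to 0.116. Without refed K556R replicate 4 of batch 1, the library at 322.5 CPM, it was 0.56 (adjusted p = 0.0867).

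Cyp4a14 had the widest batch gap of the list in the same contrast, at 2.69, and did not pass (adjusted p = 0.0507, edgeR). It passed with no count filter (adjusted p = 0.00413, edgeR). It also passed with refed WT batch 2 replicate 1 and refed K556R batch 1 replicate 4 both left out (adjusted p = 0.0317). Of the fits without 1 K556R library, it passed without refed batch 1 replicate 1 (0.0439) or refed batch 2 replicate 3 (0.0425) and in no other. Its fasted K556R livers stood at 1827, 2201, 1274 and 1921 CPM in batch 1 and at 206.8, 362.7 and 447.2 in batch 2. Its refed K556R livers stood at 545.6, 374.1, 264.2 and 70.6 in batch 1 and at 418.0, 543.1, 181.0 and 378.9 in batch 2. The fasted level of Cyp4a14 in K556R was thus high in batch 1 and as low as refed in batch 2. In WT the fasted livers stood at 1387, 1214, 1451 and 1351 in batch 1 and at 276.8, 1588, 668.8 and 803.2 in batch 2, and the refed ones at 993.2, 481.3 and 1165 and at 45.4, 224.3 and 362.9. The interaction of Cyp4a14 was -1.91 in batch 1 and 2.13 in batch 2, a difference that did not pass (adjusted p = 0.208, edgeR). Library depth was lower in batch 2, and the part of depth or handling in these batch gaps was not tested.

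Levels per kb of annotated exon, which allow genes to be compared with each other, spanned a wide range. Over all 29 libraries pooled, Acaa1b was highest at 1500.0 CPM per kb (SD 220.3), followed by Acaa2 at 592.6 (SD 45.3), Slc27a2 at 407.0 (SD 81.8), Cyp4a10 at 387.3 (SD 210.8) and Cyp4a14 at 305.3 (SD 235.7). The ranges of Acaa1b and Acaa2 did not overlap, while those of Slc27a2, Cyp4a10 and Cyp4a14 did. Pdk4 was lowest at 16.5 (SD 7.07), next to Acot2 at 21.2 (SD 8.82), with overlapping ranges. Ppara stood at 46.5 (SD 13.96), below most of the enzymes. Acaa1b and then Acaa2 had the highest mean per kb in each of the 4 groups, while the order below them changed with the group. Fasted, with batches pooled, Cyp4a10 (495.8 in WT, 557.4 in K556R) stood above Slc27a2 (472.9 and 447.7). That order held in batch 1 (571.8 and 734.5 against 435.9 and 391.0) and was reversed in batch 2 (419.9 and 321.2 against 509.9 and 523.4). In refed K556R livers Cyp4a14 (133.4) stood below Hsd17b4 (210.6), Etfa (189.6) and Acsl1 (173.4). Pdk4 was lowest in each group but refed K556R, where Acot2 (15.7) stood below it (16.4). There Acot2 was below Pdk4 in batch 1 (13.4 against 16.7) and above it in batch 2 (18.1 against 16.0). Exon length was the union over all annotated transcripts, which understates levels where long isoforms are not used.

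Scatter among libraries of the same group and batch also differed between genes. The SD of log2 CPM within group and batch was 0.89 for Cyp4a14, 0.76 for Pdk4, 0.60 for Acot2 and 0.46 for Cyp4a10. Its median was 0.131 over the 35 genes and 0.233 over all tested genes. At the other end it was 0.076 for Acadvl and 0.086 for Hsd17b4. Cyp4a14 and Cyp4a10, with the largest fitted falls, were thus among the genes that varied most between libraries. Acot1 and Ppara, which fell next most, had SDs of 0.297 and 0.196. Every gene but Pdk4 had at least 100 counts in every library, and the lowest count was 51, for Pdk4.

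**Figure D5:**
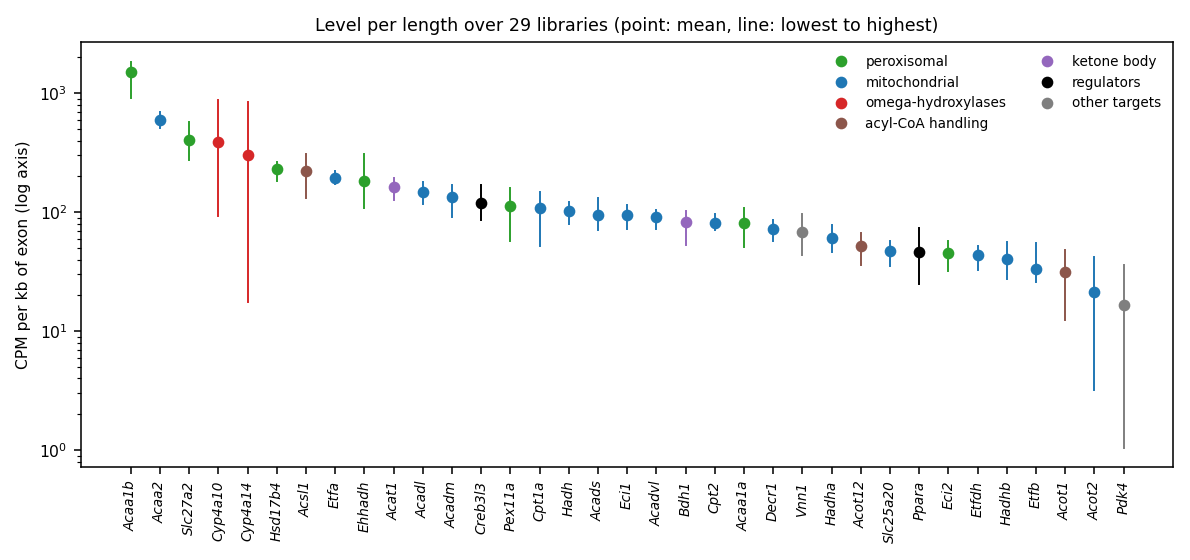
Level per kb of exon (CPM per kb, log axis) of the 35 genes over all 29 libraries, with a point at the mean, a line from the lowest to the highest library and colours for the arm of the pathway. Acaa1b stands highest at 1500.0, and the lines of Cyp4a14, Acot2 and Pdk4 are the longest.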

How the data were processed

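Poly-A RNA-seq of 29 mouse liver libraries was used, as raw counts per gene in 1 table the authors deposited. Per the submitters' processing notes the build was mm10 and the tools included STAR and TopHat, HTSeq, STAR-Fusion, edgeR and DESeq2. The annotation release and the strand setting are not given in the sources used here, so overlapping and antisense genes cannot be told apart. Gene IDs were matched to GENCODE M21 (GRCm38), with 54495 of 54532 matched and 0.000917% of counts in the others. Library totals ran from 14385218 to 27278251 counts.

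Genes were kept with filterByExpr (minimum count 10, minimum total 15), leaving 15603 with 99.92% of counts. In edgeR 4.0.16 (R 4.3.3), TMM scaling and a quasi-likelihood model with a coefficient per group and a batch term were fitted to all libraries (common biological coefficient of variation 0.191). A call needs a p below 0.05 after Benjamini-Hochberg adjustment over all tested genes. Standard errors come from the F statistic. Batch differences used a coefficient per group and batch. The procedure was tested on simulated data. DESeq2 1.42.0, RLE scaling, no count filter, no batch term, each batch alone, the compared groups alone, a replicate block and leaving out each library were tried as alternatives. The members and lists were chosen with earlier results of these data known. Every called member is described, or the 4 with the smallest p where none is called, always with Ppara, Cpt1a, Ehhadh and Cyp4a14, and at most 4 genes of the wider list for a contrast.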

Additional observations from a re-analysis of the deposited data

Results flagged for a closer look

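Each of the 35 genes was checked in each of the 4 groups for a library far from the others by Dixon's test at its 95% critical value. Of 140 sets of values 9 had such a library, and chance alone gives about 1 in 20. Creb3l3 was high in fasted K556R batch 2 replicate 2 at 506.8 CPM (median of the others 377.2), in refed K556R batch 1 replicate 4 at 381.2 (295.9) and in refed WT batch 2 replicate 1 at 387.2 (329.9). Both of these refed libraries were also low in other genes, Ehhadh at 322.5 CPM in refed K556R batch 1 replicate 4 (median of the others 535.6) and Bdh1 at 234.7 in refed WT batch 2 replicate 1 (345.4). Refed K556R batch 2 replicate 3 was low in Decr1, the mitochondrial dienoyl-CoA reductase, at 222.4 CPM (279.1) and in Acat1 at 479.4 (591.4). Acadm was low in fasted WT batch 2 replicate 1 at 465.9 CPM (599.6), and Acads was high in fasted WT batch 1 replicate 3 at 300.8 (231.6).

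The refeeding change of Ehhadh in K556R livers differed between batches by 0.70 on the log2 scale in the test of that difference (adjusted p = 0.0444, edgeR). It was the 1 gene of 35 to pass, a share near the 3.54% of all genes that passed. The call was lost in some fits that left out 1 library, such as that without refed K556R batch 1 replicate 4 (adjusted p = 0.0867, edgeR).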

How the results depend on the processing

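RLE scaling and, where it applies, fitting the compared groups alone kept every count of called members within 1.5 times. Refeeding calls in WT fell from 11 to 2 in batch 1 alone and 6 in batch 2 alone. They were 8 with no count filter (Acadm, Creb3l3 and Slc27a2 lost) and 8 with no batch term (Acadm, Cyp4a10 and Slc27a2 lost). DESeq2 gave 12, with Slc25a20 added. The WT calls ran from 7 to 11 when 1 library was left out. They were 7 without fasted WT batch 1 replicate 2 or batch 2 replicate 4, or refed WT batch 1 replicate 2 or 3 or batch 2 replicate 2 or 3, and 7 genes kept their call in every such fit. Refeeding calls in K556R were 13 in batch 1 alone, 9 in batch 2 alone and 15 with DESeq2, which added Eci1. With no batch term they were 14, with Cyp4a14 in place of Acaa1a. They were 14 to 16 with 1 library left out, and all 14 genes kept their call in every such fit. Genotype calls over both states (1, Acads) were 0 with no count filter, no batch term, batch 1 alone or batch 2 alone, 4 with DESeq2 and 0 to 4 with 1 library left out. With the replicate block they were 0. Residuals of same-numbered libraries of a batch had correlations from -0.387 to 0.36 (median -0.029) in 40 pairs. With 3 or 4 libraries per group and batch, this check cannot exclude that same-numbered libraries are paired. The block gave 9 refeeding calls in WT and 14 in K556R. Leaving out refed WT batch 2 replicate 1 and refed K556R batch 1 replicate 4 together was chosen after seeing the data. It left 11 and 14 refeeding calls, and Pex11a in place of Acads. Alternatives for the batch difference of refeeding in K556R were also added then, and they changed both the number and the identity of the calls. The 1 call (Ehhadh) became 3 with no count filter (Acot2, Cyp4a14 and Ehhadh) and 0 to 2 with 1 library left out. Without both of those libraries the 2 calls were Acot2 and Cyp4a14, and Ehhadh did not pass (adjusted p = 0.0773, edgeR). Without fasted K556R batch 2 replicate 3 the 1 call was Bdh1.

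Of the genes followed through every alternative, these changed sign. Fasted genotype difference: Cyp4a14 was 0.108 with no batch term, 0.421 in batch 1 alone and -0.38 to 0.014 with 1 library left out, and Ppara was 0.039 in batch 2 alone. Refed genotype difference: in batch 2 alone Cpt1a was 0.046 and Cyp4a14 0.849, and in batch 1 alone Ehhadh was -0.25. Refeeding in K556R, batch 2 alone: Cyp4a14 was 0.143 and Ehhadh 0.029. Interaction: in batch 2 alone Cpt1a was 0.238, Cyp4a14 2.13 and Ehhadh 0.495, Ehhadh was 0.027 without both libraries, and with 1 library left out Cyp4a14 ran from -0.35 to 0.268 and Ehhadh from -0.077 to 0.079. Among the other genes described, the refeeding change in K556R was also positive in batch 2 alone for Acot2 (0.20), Acadl (0.11), Pdk4 (0.07) and Acat1 (0.06). So was that of Pdk4 in WT in batch 1 alone (0.16). Genes with a pooled value close to 0, such as Acaa1b, Acaa2 and Bdh1, changed sign between batches too. In K556R Bdh1 stood at -0.18 in batch 1 and 0.32 in batch 2. The cause was not tested. The lowest count of any of the 35 genes was 51, for Pdk4.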
